A study of Drosophila melanogaster with 78 samples.

Results

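The structural cuticle proteins are the secreted building blocks of the insect body wall, and 91 of the 10844 genes named on the array belonged to their families. A gene was taken as a member when its symbol on the platform began with Cpr, Twdl, Lcp, Ccp84A, Edg or Acp65A, and each was represented by the probe set with the highest mean. The 91 genes were 58 Cpr genes, 20 Tweedle (Twdl) genes, 5 Lcp genes, 4 Ccp84A genes, 3 Edg genes and Acp65Aa. They had 97 probe sets of the 13966 tested. Another 7 probe sets that named several genes, among them a member, were left out.

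The cuticle is laid down by epidermal, tracheal and gut cells late in embryogenesis, when chitin fibres, made by a synthase in the apical membrane, are bound by secreted proteins and later cross-linked. Most Cpr proteins carry the chitin-binding stretch called the Rebers and Riddiford consensus, which the Lcp, Ccp84A and Acp65A proteins and some Edg proteins share. Tweedle proteins form a separate family, first known from mutants with a short, stout body. Lcp genes were named for larval cuticle, Acp65Aa for adult cuticle and Edg genes for their dependence on ecdysone in imaginal discs. Many of these genes lie in clusters of close relatives, so that a probe set may also bind RNA of a neighbouring copy.

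The study concerned axon guidance in Drosophila melanogaster. RNA of whole embryos at stage 15 was hybridised to 78 Affymetrix arrays, which fell into 18 groups by their titles. The groups with 4 arrays each were slit, slit/WT, robo, robo2, robo12, robo/WT, comm (a mutant, by its title), comm/WT, FRM, UR, UC and UR2. Those with 5 were WT, slit.robo, UC2x, URyf, UNC5 and URyf.mef. slit encodes a secreted midline repellent, robo and robo2 encode receptors for it, comm encodes a protein that keeps Robo off the axon surface, and UNC5 is a netrin receptor. The abbreviations robo12, FRM, URyf, URyf.mef, UC, UC2x, UR2 and UR are not explained in the labels, which also give no allele, driver or strain. The ending /WT was used as it stands, and of it the design text says only that mutants and transgenics were run at different dosages. That text counts 17 conditions of 3 or 4 replicates, which differs from the 18 groups of 4 or 5 arrays in the titles, and the titles were followed for every n. The titles call the arrays of a group biological replicates and the descriptions call them technical ones, so the p-values measure the spread between these arrays, which may be technical. In whole embryos, fewer cells of a type and less RNA per cell cannot be told apart.

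Values are log2 of the deposited intensities, and array medians of intensity ran from 811.1 to 857.7. A probe set was called higher or lower when its adjusted p in limma was under 0.05. Some libraries stood apart. The mean log2 level of the 32 brightest members was 12.89 in WT replicate 1 and 13.40 to 13.53 in the other WT arrays. Counts of members against WT are therefore also given without that array for most groups, as are changes of several named members. The pathway lists are given only with it. In comm/WT replicates 1 and 2 the same mean was 13.66 and 13.65, below the 13.94 and 13.97 of the other 2 arrays. The 3' minus 5' difference of the Gapdh control probe sets, a sign of RNA integrity, was 2.80 and 2.75 in the first pair, against 1.81 and 1.78. The spread of all values on an array, its SD on the log2 scale, had group means from 1.70 in UC to 1.80 in URyf.mef. It moved with several comparisons and is given beside them.

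The cuticle genes were bright as a set. 32 of the 91 (35.2%) had a mean at or above the 90th percentile of all probe sets. 43 lay between the 40th and the 90th percentile, and 16 below the 40th. The 32 were 14 Twdl genes, 13 Cpr genes, all 4 Ccp84A genes and Lcp65Ac, which shows that these families were present in stage 15 RNA. By limma's moderated F test, 88 of the 91 differed among the 18 groups, beside 97.2% of all probe sets, so a difference somewhere was the rule on this array. TwdlM, TwdlF and Cpr64Ad did not pass. TwdlM had group means between 15.40 and 15.46 on the log2 scale, and 15.46 was also the highest value in the table, so its main probe set had no room to rise. The main probe sets of TwdlF and TwdlN, with means of 15.43 and 15.32, lay close to that limit too. A dimmer probe set of TwdlM, with a mean of 14.33, was called higher than WT in 12 of the 17 groups.

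The members varied more between groups than most probe sets did. Their median range of the 18 group means was 0.63 on the log2 scale, against 0.46 for all probe sets. Among probe sets at or above the 90th percentile the medians were 0.99 for the 32 members and 0.63 for all. By family, the median range was 0.80 for Lcp, 0.76 for Twdl, 0.65 for Ccp84A, 0.63 for Edg and 0.62 for Cpr. UC had the highest group mean for 28 of the 91, robo2 for 14, and FRM and slit.robo for 12 each. slit/WT had the lowest group mean for 30 members, WT for 17, slit for 16 and UC2x for 15. The WT means include WT replicate 1.

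**Figure D1:**
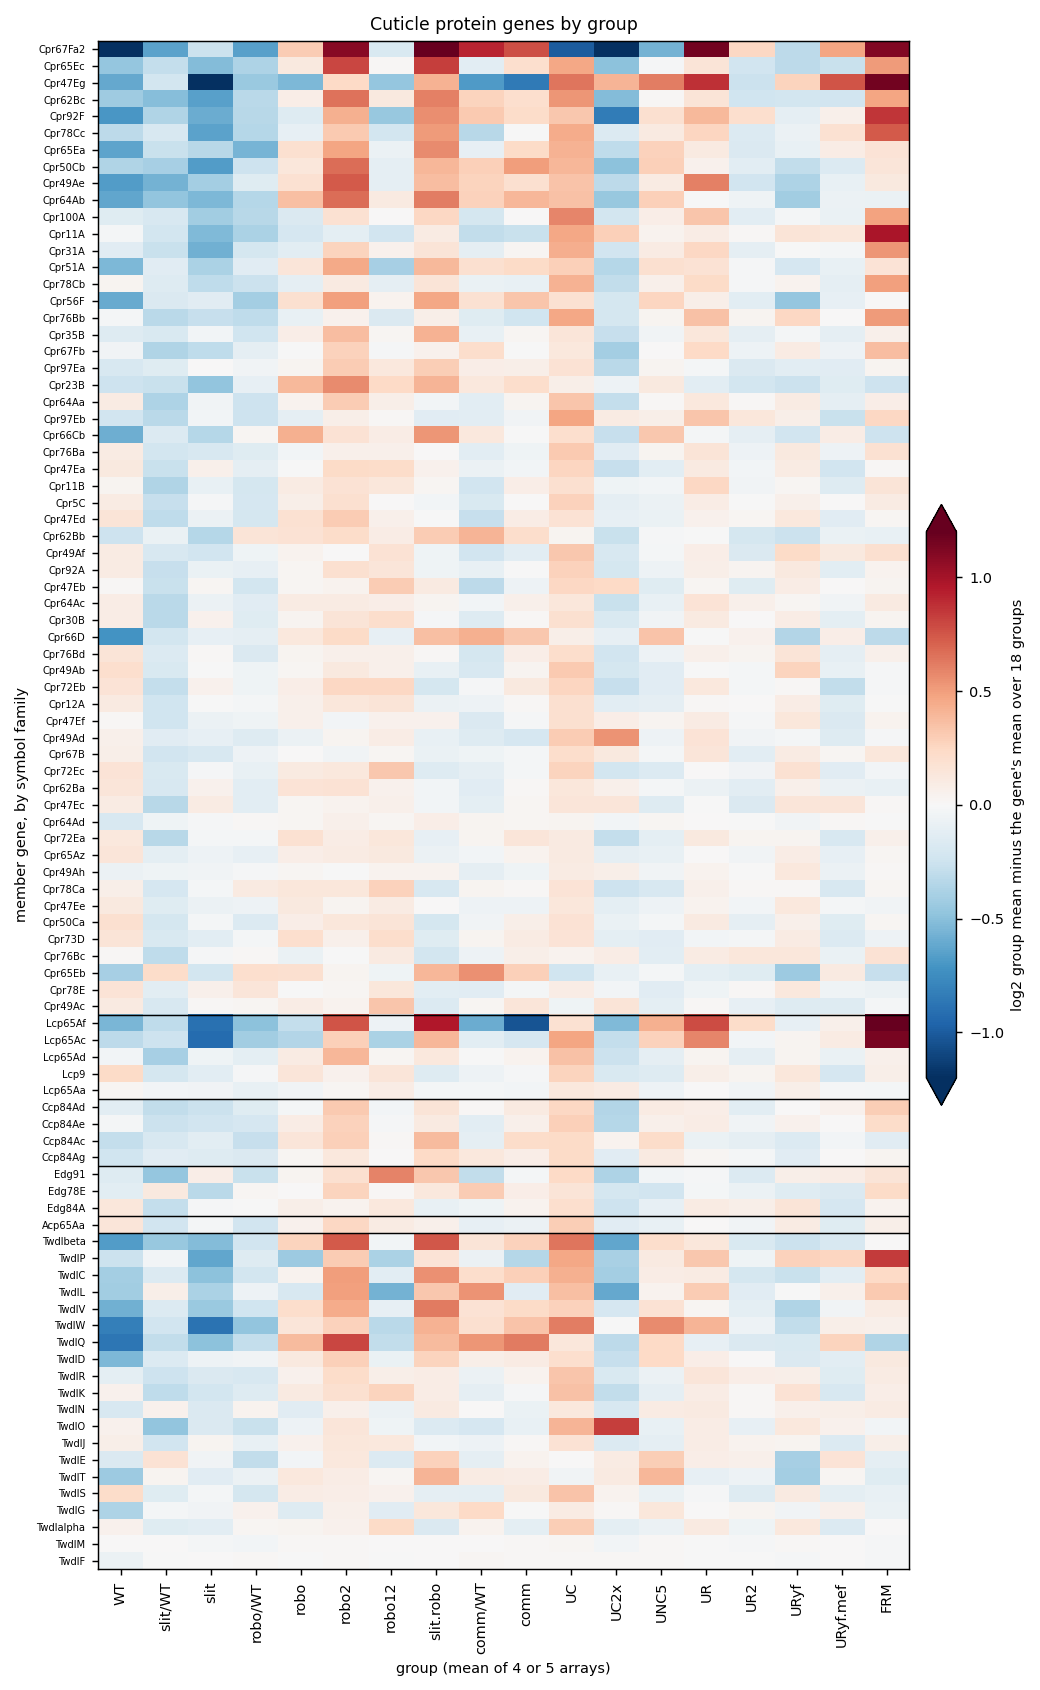
Group means of the 91 members minus each member's mean over the 18 groups, in log2 units, with one row per member and one column per group; within a family, rows are ordered by the mean over robo2, slit.robo, UC and FRM. Blue cells lie below the member's own mean and red cells above it, with the colour capped at both ends, and bright red cells gather in robo2, slit.robo, UC and FRM.

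Cpr67Fa2, an RR-consensus cuticle gene, had the widest range of all members. Its group means ran from 7.74 in UC2x to 11.80 in slit.robo, a range of 4.06 on the log2 scale or 16.7-fold. The 5 slit.robo arrays read 11.94, 12.04, 12.05, 11.68 and 11.30, and the 5 UC2x arrays 7.60, 7.90, 7.74, 7.69 and 7.77. No other group came down to UC2x except by 1 array: WT replicate 1 read 7.68, while the other WT arrays read 9.29, 9.05, 9.04 and 8.996. Between these ends, UC averaged 9.27, robo/WT 9.62, slit/WT 9.63, UNC5 9.70, URyf 9.96, slit 10.02, robo12 10.09, UR2 10.52, robo 10.58 and URyf.mef 10.75. comm and comm/WT averaged 11.05 and 11.18, and robo2, FRM and UR averaged 11.37, 11.38 and 11.43. Neighbours in this order had overlapping arrays except for UC and robo/WT, robo12 and UR2, and URyf.mef and comm, whose arrays did not overlap.

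Lcp65Af and Lcp65Ac, both larval cuticle genes of the Lcp65A cluster, and Cpr47Eg followed, each highest in FRM. Lcp65Af read 12.19, 12.03, 12.07 and 12.18 in FRM and 9.95, 9.45, 9.51 and 9.68 in comm, its lowest group, with a range of group means of 2.47. Cpr47Eg read 14.88, 14.81, 14.84 and 15.01 in FRM and 12.37, 12.40, 12.33 and 12.59 in slit, a range of 2.46. Lcp65Ac ran from 11.12 in slit to 13.18 in FRM. In each of the 3 genes every FRM array lay above every array of the lowest group. Over the 18 group means, Lcp65Ac correlated with Lcp65Af at r = 0.88, with Cpr47Eg at 0.87, with TwdlP at 0.93 and with Cpr78Cc at 0.94. These are descriptions over 18 points that share arrays, scaling and array design. TwdlQ, which was lowest in WT (12.19) and highest in robo2 (13.86), ran with Cpr66D (r = 0.87), Cpr64Ab (0.88) and Cpr66Cb (0.77) but stood nearly apart from Lcp65Ac (0.24) and Cpr47Eg (0.11).

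**Figure D2:**
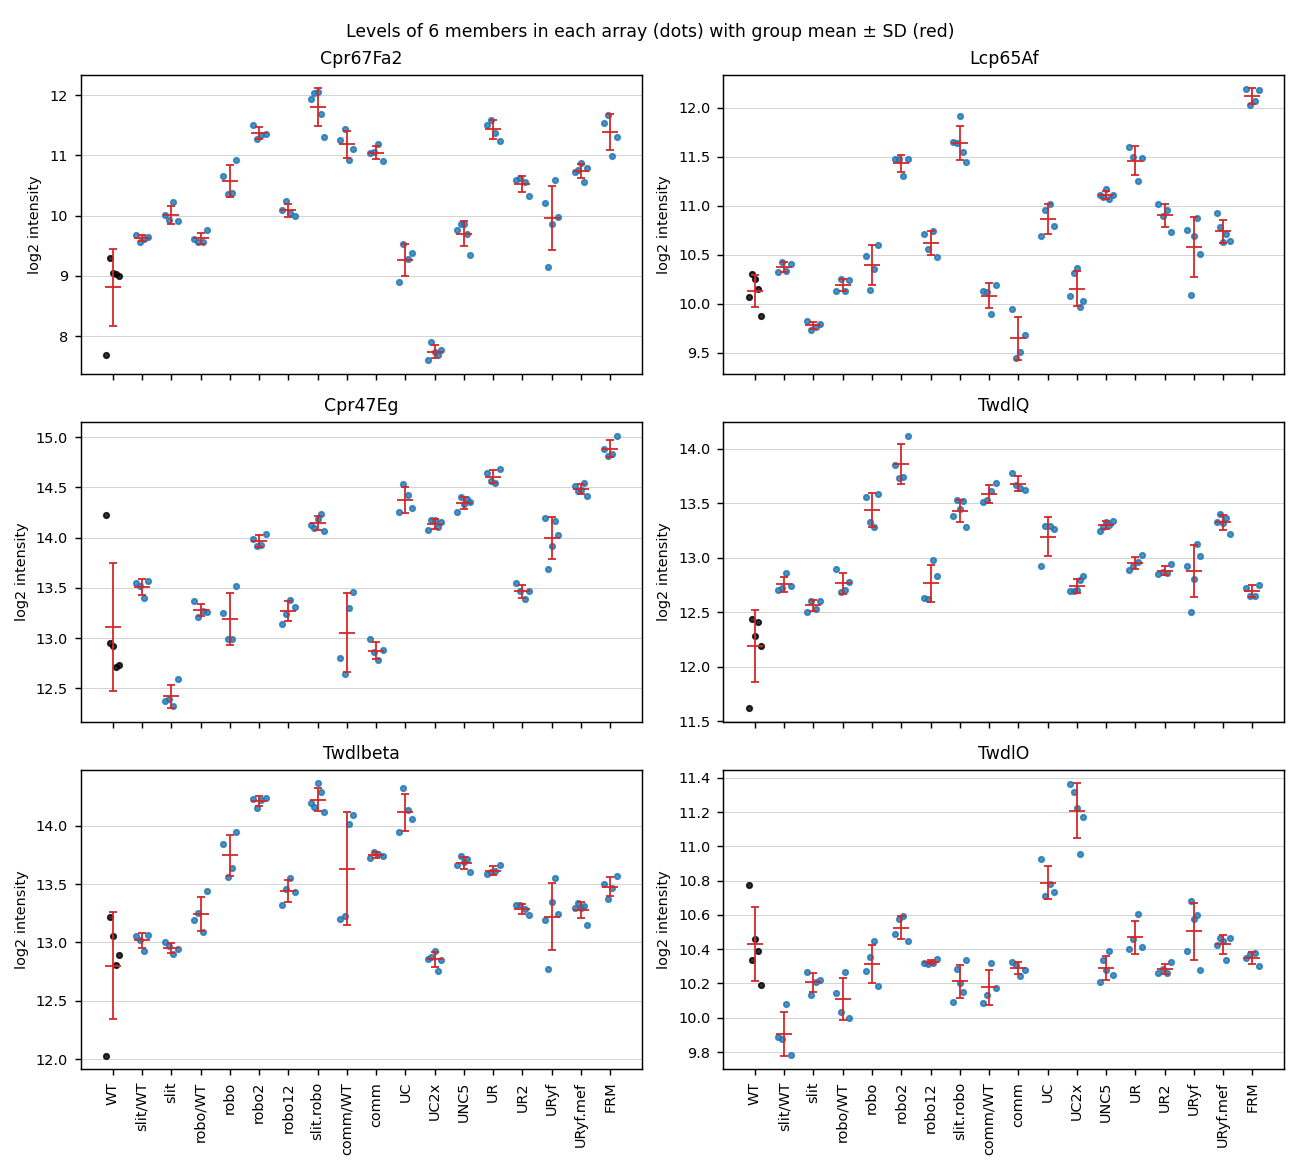
Log2 intensity of 6 members (Cpr67Fa2, Lcp65Af, Cpr47Eg, TwdlQ, Twdlbeta and TwdlO) on every array, by group, with a dot per array and the group mean ± SD in red. Cpr67Fa2 spans group means of 7.74 in UC2x to 11.80 in slit.robo, and 1 WT array, replicate 1, lies apart in it and in Cpr47Eg.

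In UC2x, most of the cuticle genes were lower than in UC. Of 91 members, 68 were lower and 3 higher, beside 38.7% and 30.5% of all probe sets, and 4 were lower by at least 2-fold. The median member changed by -0.42 on the log2 scale and the median probe set by -0.05. Among the 32 brightest members 21 were lower and 0 higher, while bright probe sets as a whole went the other way, with 59.9% higher and 16.5% lower. By family, 43 of 58 Cpr genes, 14 of 20 Twdl genes, 4 of 5 Lcp genes, 3 of 4 Ccp84A genes, all 3 Edg genes and Acp65Aa were lower.

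Twdlbeta, a Tweedle gene, read 13.94, 14.32, 14.13 and 14.06 in UC and 12.86, 12.88, 12.93, 12.75 and 12.85 in UC2x. Every UC2x array lay below every UC array, and the difference was -1.26 ± 0.12 (SE, 4 against 5 arrays), or 2.40-fold lower, with an adjusted p of 1.4e-13 in limma. Cpr92F read 11.19, 11.43, 11.32 and 11.45 in UC and 10.09, 10.32, 10.31, 10.16 and 10.02 in UC2x. It fell by 1.17 ± 0.08 (2.25-fold, adjusted p = 2.8e-21), again with no overlap. Cpr67Fa2 read 8.90, 9.53, 9.27 and 9.38 in UC against the UC2x values above, and fell by 1.53 ± 0.18 (2.89-fold, adjusted p = 2.8e-11). Cpr62Bc read 12.74 to 13.09 in UC and 11.81 to 11.98 in UC2x (2.08-fold lower, adjusted p = 9.8e-12). All UC2x arrays lay below all UC arrays for 66 members. The share of all probe sets without such overlap was not counted, so the 66 has no background beside it.

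The 3 that rose were TwdlO, Cpr49Ad and Cpr49Ac. TwdlO read 10.93, 10.71, 10.78 and 10.74 in UC and 11.37, 11.32, 11.22, 10.96 and 11.17 in UC2x. Every UC2x array was above every UC array, by 0.42 ± 0.07 on average (1.34-fold, adjusted p = 1.4e-06). Its neighbour TwdlP went the other way, from 11.57, 11.48, 11.62 and 11.66 in UC to 10.71, 10.76, 10.73, 10.80 and 10.65 in UC2x (1.80-fold lower, adjusted p = 1.7e-17). Cpr49Ad was higher by 0.24 ± 0.09 and Cpr49Ac by 0.21 ± 0.06, with adjusted p of 0.011 and 0.0043.

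Other genes of the cuticle pathway did not move as one block between UC and UC2x. Of 14 measured chitin-binding matrix genes 12 were lower and 0 higher, among them obst-E, an organiser of larval cuticle and body shape, by 1.07 on the log2 scale (adjusted p = 4e-13), Vajk1 by 0.84 and Vajk3 by 0.74. All 3 measured structural cuticle genes outside the symbol rule were lower, Tb, a Tweedle gene under its classical name, by 0.98. Of the 12 measured apical matrix and denticle genes, in contrast, 8 were higher and 4 lower, with a median of 0.73. In that list flz, a serine protease of denticle formation, rose by 2.84 (adjusted p = 1.2e-31), and the zona pellucida domain genes dyl, neo and mey, which shape the apical surface, rose by 2.03, 1.64 and 1.62. In the 12 chitin synthesis genes 7 were higher and 2 lower, with kkv, the chitin synthase, up by 0.67 and knk, which organises the fibres, by 1.05. The tanning enzyme genes split, with Ddc, the dopa decarboxylase, at -0.97 and ple, the tyrosine hydroxylase, at 0.78.

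Array spread and markers of several cell types moved with this comparison. The array SD was 1.67 to 1.72 in UC and 1.78 to 1.82 in UC2x. The mean of the epidermis markers was 9.81 to 10.07 in UC and 10.93 to 10.99 in UC2x, with 6 of the 7 markers higher and 0 lower, and neo and ImpL1 are among these markers. The hemocyte and basement membrane markers averaged 11.42 to 11.66 in UC and 11.78 to 11.91 in UC2x (5 of 6 higher, 1 lower), those of fat body and midgut 11.36 to 11.50 and 11.79 to 11.81 (3 of 6 higher, 3 lower), and those of muscle 13.63 to 13.81 and 13.88 to 13.95 (1 of 5 higher, 0 lower). The neuron markers averaged 9.91 to 10.07 in UC and 9.84 to 9.90 in UC2x, with 1 of 6 higher and 3 lower. With array SD as a covariate 61 members were lower and 4 higher, beside 15.7% and 15.6% of all probe sets in that fit, and 27 of the 32 brightest were lower. The part of these markers in the result was not tested.

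**Figure D3:**
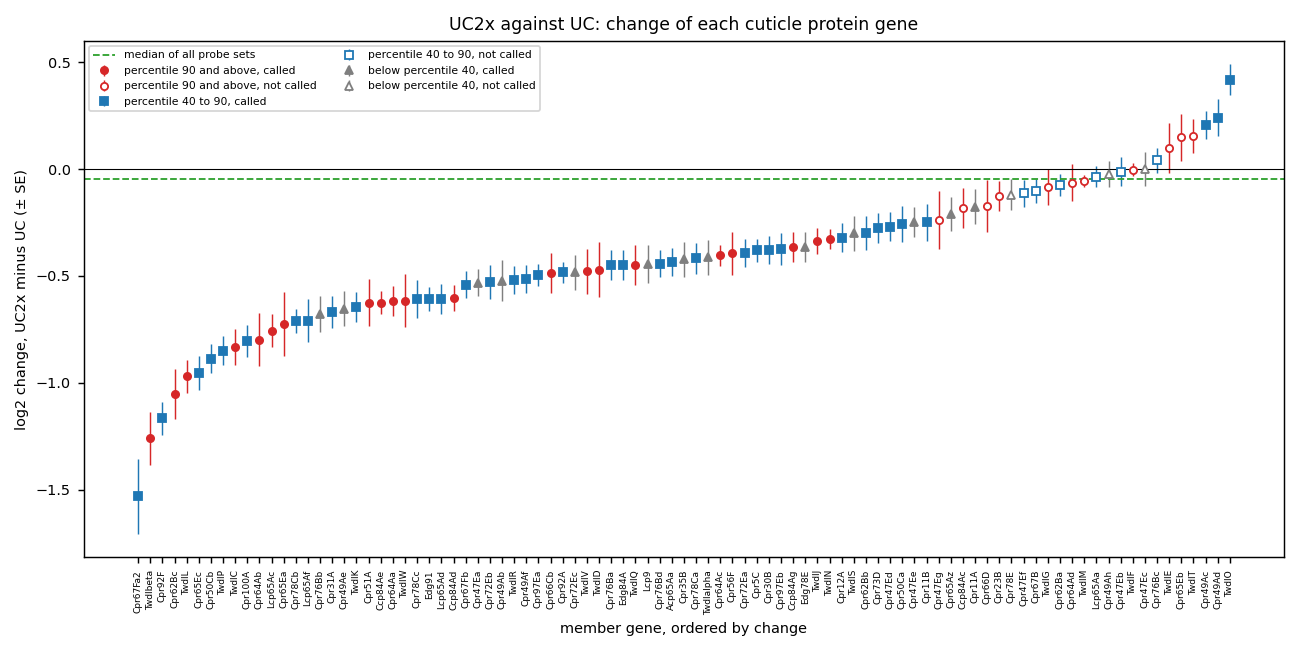
Change from UC to UC2x in log2 units (± SE) for each of the 91 members, ordered by change, with symbols for brightness and filled points for called members. The dashed line is the median of all probe sets, -0.05, and most members lie below it, down to Cpr67Fa2 at -1.53.

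slit.robo against slit showed the opposite picture. 47 members were higher and 3 lower, beside 10.1% and 7.1% of all probe sets, and 14 were higher by at least 2-fold. The median member changed by 0.25 and the median probe set by -0.01. Of the 32 brightest, 24 were higher and 0 lower, against 21.2% and 9.09% of bright probe sets. The members that rose were 27 Cpr, 12 Twdl, 4 Ccp84A, 2 Lcp and 2 Edg genes.

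Lcp65Af read 9.82, 9.73, 9.77 and 9.80 in slit and 11.65, 11.64, 11.92, 11.55 and 11.44 in slit.robo. The groups were far apart, with a difference of 1.86 ± 0.10 (3.63-fold, adjusted p = 2.5e-25). Cpr67Fa2 read 10.01, 9.93, 10.23 and 9.90 in slit and was 3.45-fold higher in slit.robo (1.79 ± 0.18, adjusted p = 2.4e-13). Cpr47Eg read 14.13, 14.10, 14.18, 14.24 and 14.06 in slit.robo, all above the slit arrays given above, at 3.30-fold (adjusted p = 2.4e-17). Cpr65Ec, an RR-consensus gene of a cluster of 3, read 10.94, 11.00, 10.96 and 11.41 in slit and 12.39, 12.38, 12.47, 12.61 and 12.32 in slit.robo. It was 2.56-fold higher (adjusted p = 2.1e-23), and slit replicate 4 was the highest slit array in it. Lcp65Ac rose by 1.32. The 3 that fell were Cpr72Eb, Cpr76Bc and Cpr49Ac, by 0.26, 0.20 and 0.18, and without slit.robo replicate 5 the count of lower members was 6.

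Among pathway genes, 8 of 14 chitin-binding matrix genes were higher and 0 lower, led by obst-E at 1.73 (adjusted p = 5.5e-22), Vajk3 at 0.95 and obst-H at 0.94. Ddc rose by 1.04 and Tb by 0.96. Apical matrix and denticle genes were lower in 8 cases and higher in 3, with neo at -2.19, mey at -1.52 and flz at -1.28, while zye rose by 1.04. No chitin synthesis gene was called higher and 3 were called lower. The epidermis markers averaged 10.84 to 11.16 in slit and 10.34 to 10.56 in slit.robo, with 2 of 7 higher and 4 lower, and ImpL1, an ecdysone-inducible gene, stood at -2.05. The array SD was 1.73 to 1.80 in slit and 1.75 to 1.83 in slit.robo. With array SD as a covariate 49 members were higher and 3 lower, without the shares of all probe sets in that fit. The part of the markers was not tested.

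**Figure D4:**
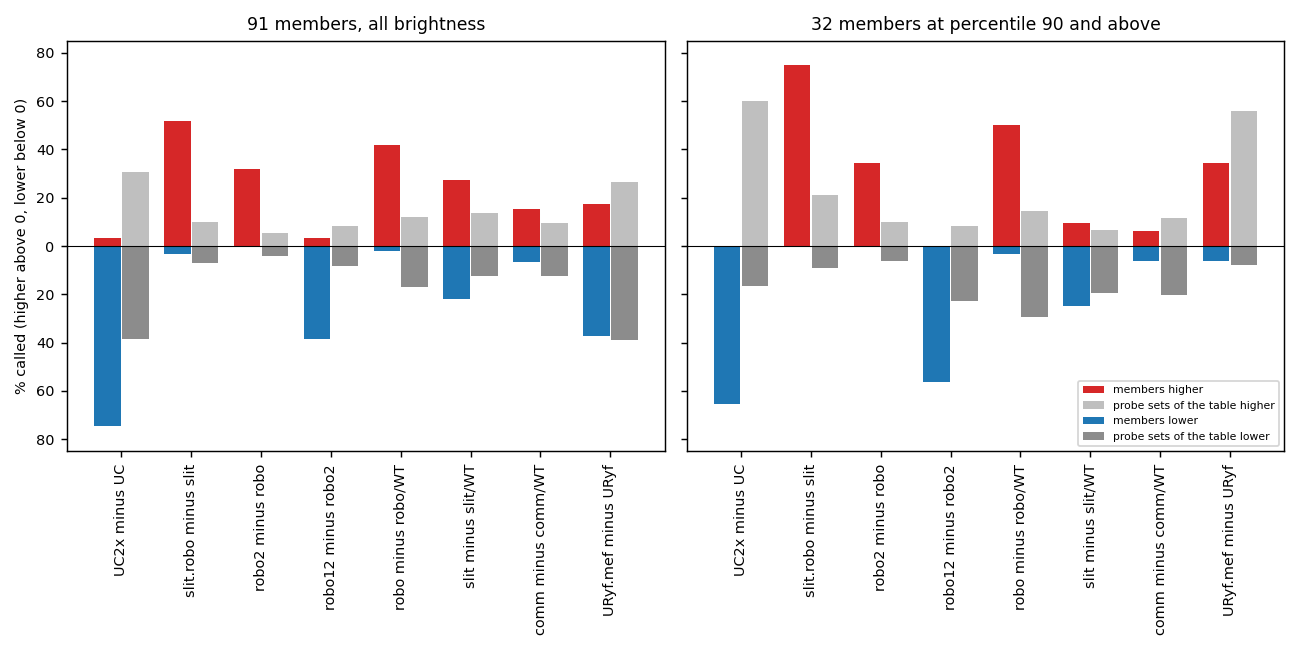
Percent called higher (above 0) and lower (below 0) in the 8 comparisons between related groups, for members in colour and for probe sets in grey, with all 91 members at left and the 32 brightest at right. UC2x against UC has 68 of 91 members lower and slit.robo against slit has 47 of 91 higher.

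The cuticle genes were highest in robo2 among robo, robo2 and robo12. Between robo2 and robo, 29 members were higher and 0 lower, beside 5.3% and 4.02% of all probe sets. Of the 32 brightest 11 were higher and 0 lower, against 9.81% and 6.23% of bright probe sets. Lcp65Af read 10.49, 10.14, 10.36 and 10.61 in robo and 11.48, 11.47, 11.30 and 11.48 in robo2, a 2.05-fold rise (1.04 ± 0.10, adjusted p = 3.8e-12). Cpr47Eg was 1.72-fold higher, with 13.99, 13.91, 13.93 and 14.04 in robo2 above 13.25, 12.99, 12.99 and 13.52 in robo. In both genes the groups did not overlap. In robo2 17 of the 58 Cpr, 6 of the 20 Twdl and 3 of the 5 Lcp genes were higher than in robo.

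From robo2 to robo12 the direction turned. 35 members were lower and 3 higher, beside 8.38% and 8.47% of all probe sets, and of the brightest 18 were lower and 0 higher, against 22.6% and 8.09%. TwdlQ read 13.85, 13.73, 13.75 and 14.12 in robo2 and 12.63, 12.62, 12.98 and 12.84 in robo12. It fell by 1.10 ± 0.10 (2.14-fold, adjusted p = 1.8e-14), with no overlap. TwdlL read 14.42, 14.32, 14.33 and 14.37 in robo2 and 13.36, 13.13, 13.38 and 13.33 in robo12, 2.08-fold lower (adjusted p = 5.3e-17). Cpr67Fa2 read 11.51, 11.28, 11.33 and 11.36 in robo2 and 10.09, 10.24, 10.05 and 9.99 in robo12, 2.42-fold lower. Edg91, an ecdysone-dependent gene for a glycine-rich cuticle protein, rose from 9.74, 9.82, 9.83 and 9.75 to 10.23, 10.22, 10.15 and 10.16, by 0.40 ± 0.06 (adjusted p = 2.7e-07), and Cpr49Ac and Cpr47Eb rose by 0.29 and 0.26. These comparisons share the robo2 arrays.

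Chitin-binding matrix genes moved the same way, 5 higher and 0 lower from robo to robo2 and 0 higher and 10 lower from robo2 to robo12. The epidermis markers averaged 10.15 in robo, 10.08 in robo2 and 10.31 in robo12. The actin 3' minus 5' difference had group means of 1.24, 1.06 and 0.56, and the array SD of 1.73, 1.73 and 1.70. With array SD as a covariate, 38 members were higher and 1 lower in robo2 than in robo. In that fit 39 were lower and 3 higher in robo12 than in robo2. The shares of all probe sets in it are not given here. Whether RNA integrity had a part was not tested.

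In robo against robo/WT, 38 members were higher and 2 lower, beside 12% and 17.1% of all probe sets. Bright probe sets as a whole were lower more often than higher, with 29.5% and 14.6%, while 16 of the 32 bright members were higher and 1 lower. Cpr65Ea read 15.00, 14.82, 14.83 and 15.10 in robo and 14.25, 14.21, 14.04 and 14.25 in robo/WT, a difference of 0.75 ± 0.16 (adjusted p = 0.00022) with no overlap. Cpr67Fa2 read 10.65, 10.36, 10.38 and 10.92 in robo against 9.61, 9.57, 9.56 and 9.76 (1.94-fold, adjusted p = 5.7e-05). TwdlQ read 13.56, 13.33, 13.28 and 13.58 against 12.90, 12.69, 12.70 and 12.78, also without overlap, and rose by 0.67 ± 0.10 (adjusted p = 1.7e-07). TwdlP and TwdlN were the 2 called lower. TwdlP fell by 0.28. The main probe set of TwdlN read 15.36 to 15.37 in robo/WT, near the highest value of the table, so the size of its difference is not given, and its dimmer probe set changed by -0.07. The epidermis markers averaged 10.04 to 10.24 in robo and 10.63 to 10.72 in robo/WT, with 1 of 7 higher and 3 lower, and of the apical matrix and denticle genes 3 were higher and 6 lower. The Gapdh 3' minus 5' difference was 1.73 to 1.97 in robo and 1.96 to 2.31 in robo/WT. The part of the markers and of RNA integrity was not tested.

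slit against slit/WT moved members both ways. 25 members were higher and 20 lower, beside 13.8% and 12.6% of all probe sets. Of the 32 brightest, 3 were higher and 8 lower, against 6.8% and 19.3%. Cpr47Eg read 13.54, 13.52, 13.40 and 13.57 in slit/WT, above every slit array, and fell by 1.09 ± 0.14 (2.12-fold, adjusted p = 2.5e-08). Lcp65Ac read 11.01, 10.99, 11.04 and 11.45 in slit and 11.79, 11.86, 11.66 and 11.87 in slit/WT, 1.60-fold lower (adjusted p = 2.6e-09). TwdlW read 12.60, 12.66, 12.81 and 12.74 in slit and 13.41, 13.31, 13.35 and 13.35 in slit/WT, 1.57-fold lower (adjusted p = 0.00012). All 3 genes had groups that did not overlap. Edg91 went the other way, with 9.62, 9.68, 9.64 and 9.74 in slit and 9.10, 9.16, 9.11 and 9.14 in slit/WT (1.46-fold higher, adjusted p = 1.3e-10), and Cpr47Ec and Cpr30B rose by 0.43 and 0.38. The mean of the neuron markers was 9.67 to 9.79 in slit and 9.99 to 10.10 in slit/WT, with 0 of 6 called higher and 1 lower, and that of the muscle markers 13.67 to 13.90 and 13.96 to 14.01, with 0 of 5 higher and 1 lower. The hemocyte markers lay at 11.70 to 11.79 and 11.89 to 11.95, with 0 of 6 higher and 1 lower. The part of these markers was not tested.

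comm against comm/WT moved few members, 14 higher and 6 lower, beside 9.52% and 12.3% of all probe sets. Of the brightest, 2 were higher and 2 lower, against 11.6% and 20.3%. TwdlL read 13.85, 13.56, 13.73 and 13.77 in comm and 14.48, 14.57, 14.28 and 14.27 in comm/WT. It fell by 0.68 ± 0.08 (1.60-fold, adjusted p = 3.6e-09), with no overlap. The probe set shared by TwdlL and TwdlB changed by only -0.07. Lcp65Af read 10.13, 10.12, 9.90 and 10.20 in comm/WT and fell by 0.44 ± 0.10 in comm (adjusted p = 0.0013). Cpr47Ed, Cpr65Ec and Cpr78Cc rose by 0.36, 0.33 and 0.33. The count of higher members was 6 without comm/WT replicate 2 and 7 without comm/WT replicate 1, the arrays with the larger Gapdh difference.

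The 3 effects just given were compared by interaction contrasts, which were added after the data had been seen. The slit effect lay below the robo effect for 27 members and above it for 2, beside 5.18% and 5.81% of all probe sets. TwdlW differed by -1.27: it was lower in slit than in slit/WT but higher in robo (13.74, 13.62, 13.53 and 14.03) than in robo/WT (13.15, 13.11, 13.04 and 13.15). Cpr47Eg differed by -0.996 (adjusted p = 0.0003), TwdlQ by -0.87 and Cpr65Ea by -0.81 (adjusted p = 0.011), while Cpr76Bc (0.38) and Cpr78E (0.33) were the 2 in the other direction. The slit effect lay below the comm effect for 11 members and above it for 4, beside 7.38% and 6.9%, with Cpr47Eg at -0.91 and TwdlW at -0.80. The robo effect lay above the comm effect for 6 members and below it for 0, beside 0.895% and 1.68%, and Cpr67Fa2 had the largest difference, 1.09 (adjusted p = 0.0072). A probe set that names both Cpr67Fa2 and Cpr67Fa1 had a robo effect of 0.655 and a comm effect of 0.577, which lie close together.

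URyf.mef against URyf gave 16 members higher (17.6%) and 34 lower (37.4%), beside 26.7% and 38.9% of all probe sets. The lower share was close to that of the whole array, and the higher share lay below it. Of the brightest, 11 were higher and 2 lower, against 56.1% and 7.87%. TwdlE read 13.45, 12.80, 13.02, 13.40 and 12.85 in URyf and 13.68, 13.67, 13.66, 13.77 and 13.52 in URyf.mef (1.47-fold higher, adjusted p = 2.1e-05). TwdlK read 10.18, 10.76, 10.76, 10.74 and 10.65 in URyf and 10.27, 10.19, 10.31, 10.19 and 10.30 in URyf.mef, with URyf replicate 1 among the URyf.mef values. The array SD was 1.63 to 1.78 in URyf and 1.78 to 1.82 in URyf.mef, and with it as a covariate 1 member was higher and 3 lower. The counts of this comparison therefore rest on how array spread is treated. The shares of all probe sets in the covariate fit are not given here.

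All 17 comparisons with WT use the same WT arrays, so their values are given side by side and not as separate evidence. In UC 61 members were higher and 0 lower, beside 12.4% and 15.4% of all probe sets, and in robo2 48 were higher and 0 lower, beside 11.8% and 13.8%. In robo12 34 were higher and 0 lower, beside 8.51% and 10.1%. robo had 28 higher and 0 lower, beside 7.81% and 8.82%, and URyf 24 higher and 1 lower, beside 4.77% and 5.01%. These 5 groups had at most 1 member below WT. Fitted on the compared groups alone, the higher members numbered 12 in robo12, 13 in robo and 2 in URyf. The shares of all probe sets in those fits were not counted. In the same way mostly upward, FRM had 43 higher and 5 lower (17.4% and 23.4%), UR 42 and 4 (14.4% and 18.8%), comm 32 and 9 (12.1% and 15.4%) and UR2 27 and 10 (16.6% and 21.1%).

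The other groups held members on both sides of WT. slit.robo had 46 higher and 24 lower, beside 21.2% and 35.9% of all probe sets, UNC5 40 and 28 (21% and 33.3%), and URyf.mef 35 and 32 (24.3% and 40.7%). comm/WT had 33 higher and 31 lower, beside 21.1% and 33.4%. In slit/WT 46 members were lower and 24 higher (37.5% and 25.2%), and in UC2x 38 and 22 (34.7% and 24.2%). robo/WT had 32 lower and 20 higher (26% and 20.6%), and slit 30 and 13 (24.2% and 15.8%). In these groups all probe sets, too, were lower more often than higher. The members' higher shares, 26.4%, 24.2%, 22% and 14.3% in that order, lay near those of all probe sets. Their lower shares were 50.5%, 41.8%, 35.2% and 33%. In slit/WT the Cpr genes were 34 lower and 10 higher, whereas the Twdl genes were 12 higher and 5 lower. The 2 families differ in brightness, with 13 of 58 Cpr and 14 of 20 Twdl genes at or above the 90th percentile. In slit/WT the median change of all probe sets was 0.19 in that stratum and -0.15 below the 40th percentile. The part of brightness in the family counts was not tested.

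Most counts of lower members fell when array SD was added as a covariate. The SD was 1.66 to 1.75 in WT and above that range on every array of UNC5, UC2x, UR2, URyf.mef, slit/WT and comm/WT. In those groups array SD and group cannot be told apart. With array SD as a covariate, the lower members numbered 2 in slit.robo, 1 in UNC5, 2 in URyf.mef, 11 in comm/WT, 23 in slit/WT, 19 in UC2x, 16 in robo/WT and 19 in slit. The higher members numbered 45 in slit.robo, 33 in UNC5, 29 in comm/WT and 16 in robo/WT, but 19 in URyf.mef, 14 in UC2x, 8 in slit and 5 in slit/WT. The shares of all probe sets in the covariate fit are not given here, so these drops are not set against those of the whole array. Without WT replicate 1, slit.robo had 45 higher and 16 lower, slit/WT 16 and 44, and UC2x 15 and 37. FRM had 40 and 3, comm 29 and 3 and UR 39 and 2, while UC had 60 and 1 and robo2 48 and 0. UNC5 had 36 and 23, URyf.mef 27 and 26, comm/WT 30 and 23, robo/WT 16 and 22 and robo12 28 and 1. Over the 17 comparisons of that fit, 6.61% to 21.9% of all probe sets were higher and 7.83% to 34.2% lower.

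Bright members were the ones that stood above WT most often. Of the 32, 29 were higher and 0 lower in robo2, beside 26.6% and 16.3% of bright probe sets. In slit.robo 28 were higher and 0 lower, beside 47.5% and 11.7%, and in UC 27 and 0, beside 23% and 26.6%. UC2x had 15 higher and 6 lower, beside 51.8% and 9.88%. Without WT replicate 1, the counts were 26 and 0 in robo2, beside 23.3% and 18.5% of bright probe sets in that fit, 25 and 0 in slit.robo (40.9% and 11%), 26 and 0 in UC (21.5% and 32.8%), and 9 and 7 in UC2x (42.2% and 9.88%). WT had the lowest group mean for 16 of the 32, a count made only with WT replicate 1 included. Of the 91, 13 members were called higher in at least 15 of the 17 groups, or 8 without WT replicate 1. The share of all probe sets called higher that often was not counted.

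**Figure D5:**
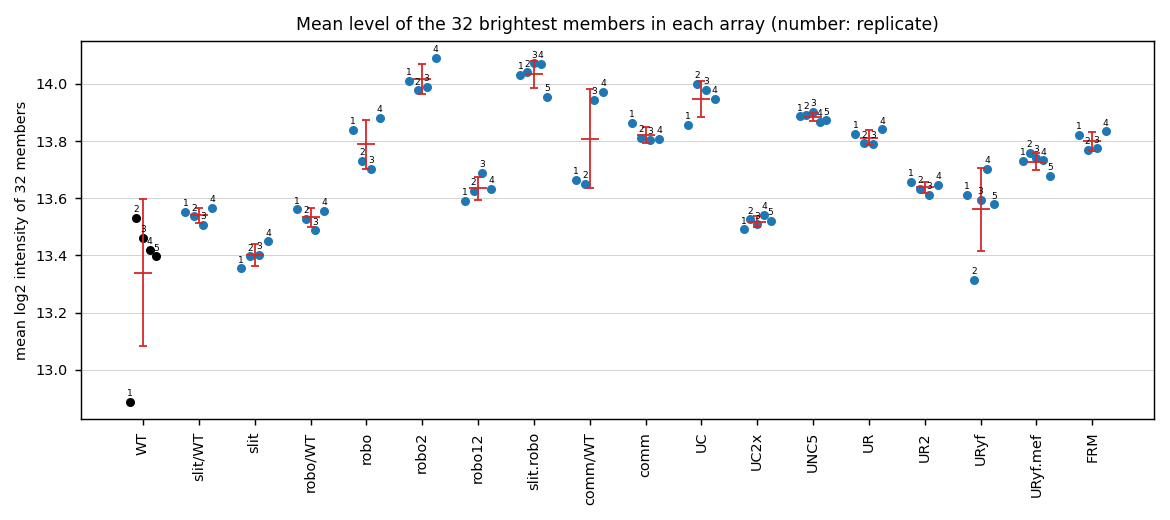
Mean log2 intensity of the 32 members at or above the 90th percentile on each array, by group, with a dot and replicate number per array and the group mean ± SD in red. WT replicate 1 is the lowest array at 12.89, and slit.robo and robo2 have the highest group means at 14.03 and 14.02.

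TwdlQ was higher than WT in all 17 groups, with and without WT replicate 1. It read 11.62, 12.44, 12.28, 12.41 and 12.19 in WT, and all 4 robo2 arrays lay above these, by 1.67 ± 0.09 (3.19-fold, adjusted p = 8.6e-25), or 1.53 without WT replicate 1. Cpr66Cb was higher in 17 groups, or 16 without that array. Cpr49Ae read 8.33, 8.64, 8.29, 8.33 and 8.45 in WT and 9.86, 9.84, 9.84 and 9.73 in robo2, a 2.65-fold difference (adjusted p = 6.5e-24) that was 1.39 on the log2 scale without WT replicate 1. It was higher in 16 groups with and without that array, although its mean lies below the 40th percentile. TwdlT was higher in 16 groups both ways by its main probe set, but its dimmer second probe set, with a mean of 10.06, was higher in 6 groups and lower in 1, with a median change of 0.14.

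Cpr67Fa2 was higher than WT in 16 groups and lower in 1, UC2x. Without WT replicate 1 it was higher in 15, and the call in UC was lost (adjusted p = 0.042 with that array and 0.37 without it, in limma). The changes reached 2.99 ± 0.17 in slit.robo (7.95-fold, adjusted p = 6.4e-25) and 2.62 in UR, or 2.71 and 2.34 without WT replicate 1, and in UC2x the change was -1.07, or -1.35 without it. A probe set that names both Cpr67Fa2 and Cpr67Fa1 went the other way in UC2x, at 0.56 above WT, and changed by -0.94 from UC to UC2x. In FRM, Lcp65Af was 3.96-fold higher than its WT values of 10.07, 10.30, 10.25, 10.15 and 9.88 (1.99 ± 0.10, adjusted p = 5.9e-27), and Cpr92F was higher by 1.55. Cpr47Eg stood at 14.23 in WT replicate 1 and at 12.96, 12.92, 12.71 and 12.74 in the other WT arrays. Its change in slit was -0.69, or -0.41 without replicate 1, and in FRM 1.77, or 2.05 without it. TwdlW read 11.64 in WT replicate 1 and 12.97 to 13.16 in the others, and its change in UC was 1.43, or 1.15 without replicate 1. In WT replicate 1, then, Cpr47Eg was high where Cpr67Fa2, TwdlW and Cpr66D (11.64 against 12.71 to 12.86) were low.

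Fewer members were often below WT, and their changes were small. TwdlS was lower in 11 groups (8 without WT replicate 1), with a median change of -0.25, and Cpr62Ba in 10 (9 without it), with -0.17. 8 members were lower in at least 9 groups, or 1 without WT replicate 1. The share of all probe sets called lower that often was not counted. Edg91 was highest in robo12, where it was 1.68-fold above WT (0.75 ± 0.06, adjusted p = 1e-17).

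Genes of one cluster did not always move together. Members whose RefSeq starts lay within 20 kb of each other were grouped, and r was taken over the 18 group means. The median r of all pairs of members was 0.39, and of pairs of bright members 0.56. Cpr72Ea, Cpr72Eb and Cpr72Ec had a median r of 0.86, TwdlF, TwdlG and TwdlV 0.57, and the Ccp84A genes with Edg84A 0.57. The 7 Cpr47E genes had 0.55 and the 4 Cpr76B genes 0.53. The 10 Twdl genes D, J, K, L, M, N, O, P, R and S lie together and had a median of 0.35, with pairs from -0.27 to 0.90. The Cpr62B genes had 0.18 and the Cpr49A genes 0.17, below the median of all pairs. From UC to UC2x, 8 of the 10 clustered Twdl genes were lower and 1, TwdlO, higher, and all 3 Cpr72E genes were lower. From slit to slit.robo the Cpr72E genes had 0 higher and 1 lower, unlike most members. Clusters were named after their values were seen.

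Against WT, several genes of the surrounding pathway were higher in groups where bright cuticle genes were higher. The neuron, muscle and trachea markers, the last of which hold Gasp, also had their lowest group means in WT (9.59, 13.47 and 13.26). Those of hemocytes and of fat body and midgut were lowest in URyf (11.565) and slit/WT (10.37). Whether a low WT level had a part was not tested. Of the 14 chitin-binding matrix genes, 12 were higher and 0 lower in UC (median 0.45) and 11 higher and 0 lower in robo2 (0.51). Gasp, obst-A and obst-H were higher in all 17 groups, and obst-E was higher in 16 and lower in 1. Tb was higher in 16 groups with a median of 0.74, Ddc in 15 with 0.65, and grh, a transcription factor of the epidermis, in 16 with 0.66. ftz-f1, a nuclear receptor known to act on cuticle genes, was higher in 14 with a median of 1.06. ImpL1 was lower in 12 and higher in 1, and flz and mey were lower in 12 each. The epidermis markers, which hold both grh and ImpL1, did not stand on one side of WT. Of the 7, 2 were higher and 3 lower in UC, 1 and 4 in robo2, 3 and 3 in slit.robo, 6 and 0 in slit, and 5 and 0 in slit/WT and in UC2x. Of the 12 apical matrix and denticle genes, 3 were higher and 8 lower in UC, 4 and 6 in robo2, 7 and 0 in slit, and 8 and 1 in UC2x. The lists' counts describe single genes, and WT replicate 1 enters each of them. The share of all probe sets called in as many groups as these genes was not counted.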

How the data were processed

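The deposited table holds 1 intensity per probe set and array, on a linear scale, for 78 arrays. The submitters' processing notes name RMA, which corrects background, normalizes and sums up probes, with no version given. The plan had assumed log2 values, so the linear intensities were first put on the log2 scale. The 44 control probe sets were left out. Gene symbols came from the platform table (12443 probe sets with 1 symbol, 327 with several, 1196 with none), and all 91 members matched a RefSeq gene, which gave their neighbours. The members, lists and groupings were chosen with earlier results of these data known. Group means of all 18 groups were fitted in limma 3.58.1 (R 4.3.3) with 60 residual degrees of freedom, and p-values were adjusted by Benjamini-Hochberg over all 13966 probe sets in each comparison, two-sided, at 0.05. Errors of differences are limma's standard errors. The genes named are those with the widest ranges in each family (up to 5, at or above the 40th percentile), those called most often against WT, the 3 highest and 3 lowest in the comparisons between related groups and in 7 against WT, and up to 4 genes of each pathway list with 7 fixed ones. Others, such as those of clusters, correlations and interactions, most pathway genes named within one comparison, and TwdlF and Cpr64Ad, were chosen after their values were seen, as was the division at the 90th percentile. The fit was tested on simulated data. Alternatives were quantile normalization, no dim probe sets, the compared groups alone, a replicate block, array SD as a covariate, without 6 arrays that stand apart in spread, each array left out and a second probe set. The number of arrays limits the precision. Figures were drawn with Python 3.11.15 and matplotlib 3.10.9. Sequences were not analysed here.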

Additional observations from a re-analysis of the deposited data

Results flagged for a closer look

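Of 144 groups of array values tested, 14 had an array far from the others, and chance flags about 1 in 20 groups. WT replicate 1 was the array in 4 of them: the mean of the bright members was 12.89 (others 13.4 to 13.53), Cpr67Fa2 read 7.68 (9 to 9.29), Cpr47Eg 14.23 (12.72 to 12.96) and Cpr66D 11.64 (12.71 to 12.86). The mean of the bright members was 13.86 in comm replicate 1 (13.8 to 13.81). Single members stood apart in robo2 replicate 3 (Lcp65Af 11.3, others 11.47 to 11.48), UC replicate 1 (TwdlQ 12.92, others 13.26 to 13.29), URyf.mef replicate 5 (Twdlbeta 13.15, others 13.29 to 13.34), UR2 replicate 2 (Cpr66D 13.41, others 13.32 to 13.33) and slit/WT replicate 4 (Cpr66D 13.14, others 13.05 to 13.06). Array SD stood apart in URyf.mef replicate 5 (1.78), comm/WT replicate 4 (1.78), robo/WT replicate 4 (1.79) and slit/WT replicate 2 (1.78).

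Effects of the mutant against its /WT group differed between slit and robo for 29 members, between slit and comm for 15 and between robo and comm for 6, by interaction contrasts in limma. For slit and comm, 6.9% of all probe sets were called higher and 7.38% lower, so the 15 of 91 members lie near the background. The shares were 5.81% and 5.18% for slit and robo and 0.895% and 1.68% for robo and comm.

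Probe sets that name several genes were left out of the members. Those of Lcp65Ag1 with Lcp65Ag2, and of Ccp84Aa with Ccp84Ab, were higher than WT in 11 of the 17 groups each. That of TwdlL with TwdlB was higher in 13, and those of Lcp65Ag1, Lcp65Ag2 and Lcp65Ag3 and of Cpr67Fa1 with Cpr67Fa2 in 15 each.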

How the results depend on the processing

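With array SD as a covariate, the counts of members against WT that moved by over 1.5 times were those of lower members in FRM (5 to 1), UC2x (38 to 19), UNC5 (28 to 1), UR (4 to 1), UR2 (10 to 5), URyf (1 to 2), URyf.mef (32 to 2), comm (9 to 2), comm/WT (31 to 11), robo (0 to 1), robo/WT (32 to 16), robo12 (0 to 1), slit (30 to 19), slit.robo (24 to 2) and slit/WT (46 to 23), and of higher members in UC2x (22 to 14), URyf.mef (35 to 19), slit (13 to 8) and slit/WT (24 to 5). Between related groups, lower members went from 0 to 1 in robo2 against robo, and URyf.mef against URyf went from 16 to 1 higher and from 34 to 3 lower. With the compared groups alone, higher members fell in number in UC2x (to 14), UR2 (27 to 13), URyf (24 to 2), robo (28 to 13), robo/WT (20 to 9), robo12 (34 to 12), slit (to 4), slit/WT (to 11) and comm against comm/WT (14 to 9), and lower members in FRM (to 3), UR (to 1), URyf (to 0), comm (to 3), comm/WT (to 15), robo/WT (to 19), slit (to 10), slit.robo (to 13), robo against robo/WT (2 to 1) and slit.robo against slit (3 to 1). That fit holds fewer arrays. The counts of members in this section are given without the shares of all probe sets in the same fits.

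Quantile normalization gave 14 higher in UC2x, 5 lower in comm, 1 lower in robo2 against robo and 6 higher in URyf.mef against URyf. Without dim probe sets the lower members numbered 2 in FRM, 1 in UC, 2 in UR, 5 in comm and 1 in robo. The second probe set gave 1 lower in robo12. Without the 6 arrays that stand apart, lower members numbered 1 in UC, 3 in URyf, 3 in comm, 1 in robo12, 4 in robo against robo/WT and 1 in robo2 against robo, and higher members 5 in robo12 against robo2 and 5 in UC2x against UC. With one array left out, the higher members of comm against comm/WT ranged from 6 to 17 and its lower members from 3 to 6. Lower members ranged from 3 to 9 in FRM, 0 to 1 in UC, 2 to 5 in UR, 7 to 18 in UR2, 1 to 3 in URyf, 3 to 13 in comm, 0 to 2 in robo, 0 to 1 in robo12, 0 to 1 in robo2 against robo and 2 to 6 in slit.robo against slit. The cause of these moves was not tested.

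Replicate numbers did not pair the arrays: deviations of same-numbered arrays had a median r of 0.014, against -0.005 for others, and 181 of 627 such pairs (28.9%) were over 0.1. With a replicate block, the pairing moved the count of lower members in robo from 0 to 1 and no other count by over 1.5 times.

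Sign changes of differences that were not called in the main fit were not counted. Among the named members, a called difference changed sign in 29 cases. Under quantile normalization these were, against WT, Ccp84Ac (-0.045), Ccp84Ad (-0.147) and Ccp84Ag (-0.013) in URyf.mef, Ccp84Ad in UNC5 (-0.107) and UR (-0.001), and Ccp84Ad (-0.087) and Ccp84Ae (-0.143) in slit.robo. Under array SD they were TwdlW (-0.067), Cpr92F (-0.012), Cpr66D (-0.129), Cpr66Cb (-0.059), Cpr72Eb (0.021) and Lcp9 (0.005) in URyf.mef against URyf. Against WT they were Ccp84Ac (-0.091), Cpr49Ad (0.085), Cpr72Ec (0.002) and TwdlE (-0.122) in URyf.mef, and Lcp65Af (-0.096), Cpr66D (-0.021), Cpr49Ad (0.080) and TwdlE (-0.078) in slit/WT. The rest were Cpr66Cb (-0.041), TwdlE (-0.144) and Cpr65Eb (-0.098) in UC2x, Cpr66Cb (-0.009) in slit, Cpr47Ed (0.054) in slit.robo, and Cpr76Bc (0.005), Cpr65Eb (-0.036) and TwdlK (0.056) in UNC5. Of the counts of pathway genes, 85 moved and 187 did not under array SD, and 54 moved and 218 did not under quantile normalization. Low signal limits the 16 dim members.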

Other observations

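The cell cycle genes, measured for 9 of the 15 listed, followed a different order from the cuticle genes over the groups. Their mean log2 level was highest in URyf.mef (10.03 to 10.14 over its arrays), UR2 (9.97 to 10.01) and FRM (9.93 to 10.01), and lowest in robo2 (9.12 to 9.20) and robo (9.18 to 9.22). From UC to UC2x 7 of the 9 were higher and 0 lower, with a median of 0.47 on the log2 scale.

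The second probe set of TwdlN, with a mean of 12.47, was higher than WT in 12 of the 17 groups, by a median of 0.77, and by 2.84 in FRM and 1.53 in UC.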
